A study of Arabidopsis thaliana with 6 samples.

Results

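The jasmonate pathway was followed through 47 Arabidopsis thaliana genes for the synthesis, perception and turnover of the hormone and for some of its targets. The members were chosen by locus identifier, not by their signal, as the probes whose annotation holds 1 of the listed loci. Each of the 47 genes had 1 probe, of 35635 probes for 35475 gene identifiers on the array. Total RNA came from whole seedlings 14 days old, grown on diluted MS medium under long days. One group carried a transgene that overexpresses sORF2146, a short open reading frame whose role in the plant the series set out to address. The other group carried the empty pMDC32 vector, a plant transformation vector built for expression from the cauliflower mosaic virus 35S promoter. There were 3 biological replicates per group, each on an array of its own. The labels name pMDC32 for the control alone. The promoter of the overexpressor, the background accession and the number of independent lines are not given in the sources used here. No probe carries the name sORF2146, so its level could not be used to check the labels.

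Jasmonate is made from a plastid fatty acid by lipoxygenases, allene oxide synthase and allene oxide cyclases, which yield the cyclic precursor OPDA, and the precursor is reduced and shortened in peroxisomes. JAR1 joins jasmonic acid to isoleucine, and this conjugate binds the receptor pair of COI1 and a JAZ protein. The JAZ repressor is then degraded and MYC transcription factors are freed, which switch on defence and wound genes together with the genes of jasmonate synthesis, JAZ repressors and jasmonate breakdown. Oxidases, hydroxylases and amidohydrolases remove the hormone and its conjugate. In leaves and seedlings the pathway is best known from wounding, insect feeding and necrotrophic fungi.

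Levels are given as scaled log2 signal, which is the log2 processed signal of a probe minus the 75th percentile of its array, so that 0 is the brightness of that percentile. Differences are overexpressor minus vector control on this log2 scale, from limma with Benjamini-Hochberg adjustment over all genes tested and a threshold of 0.05. Testing required a signal clearly over background in every replicate of either group, by the flag of the scanner software. Of the 47 members 44 were tested, and 41 were well above background on all 6 arrays. JOX3 and JOX4 entered the test through the control arrays alone and JAZ7 through the overexpressor arrays alone, which bears on the sign of the differences of these 3. JMT, which methylates jasmonic acid, and ILL6, an amidohydrolase, stayed near background throughout. JOX1, a jasmonic acid oxidase, was well above background on 1 control array, and these last 3 genes were not tested.

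Over all 23394 genes tested 5.17% were called, 587 higher and 623 lower. The split was 784 and 492 with quantile normalization, and 102 and 1856 when arrays were scaled to spike-in RNA, which lowers every difference by 0.27. The overexpressor arrays had 23270 to 23734 probes well above background and the control arrays 24024 to 24510. The 75th percentiles of processed signal were 817 to 996 in the overexpressor and 1098 to 1170 in the control. The part of this difference in which genes were tested was not examined. No spot was saturated, and precision is limited by the number of arrays. The control arrays lay on one slide and the overexpressor arrays on another, and for every result below the effects of slide and genotype cannot be told apart. Of the markers that check the tissue, 8 of 8 leaf genes and 18 of 20 root genes were well above background on all arrays. Of 6 floral genes LFY and AP1, and of 7 seed genes 4 (CRC, CRA1, SESA1 and OLEO2), were not so on any array. The summed floral level, relative to the 75th percentile, was 0.135 to 0.432 in the overexpressor and 0.512 to 1.25 in the control, and the summed seed level 0.0352 to 0.0646 and 0.0653 to 1.81. SEP3, a floral organ identity gene well above background on all arrays, was lower in the overexpressor without overlap, at -1.74 (SE 0.56, limma adjusted p = 0.11). EM1, a late seed protein gene, had processed signals of 2036, 327 and 24.8 in the control and none well above background in the overexpressor. The part of these floral and seed genes in the results below was not tested. Vector control replicate 1 stood apart, with a median deviation from the mean of the 6 arrays of -0.82 for root markers and 2.05 for genes of salicylic acid defence.

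Of the 44 members tested 3 fell, namely the hydroxylase CYP94B3, the oxidase JOX3 and the thionin THI2.1, and 0 rose, with JOX3 tested through the control arrays alone (6.82% fell, against 2.66% of all genes that fell and 2.51% that rose). With the 41 members well above background on all arrays, 2 fell (CYP94B3 and THI2.1), against 2.28% of all such genes, and 5 differed by -1 or less, against 3.59%. Of these 41 members 14 were lower and 4 higher without overlap, against 16.6% and 23.6% of all such genes. At an unadjusted limma p under 0.05 there were 14 of the 44 members, close to the 30.8% of all genes with such a p in either direction. Of these 14 members 13 were lower, JOX3 among them, and the share of all genes by direction was not computed. The groups did not overlap for 15 members lower in the overexpressor (34.1% of members, 17.5% of all genes) and for 4 higher (9.09% of members, 23.1% of all genes). A difference of -1 or below was found for 7 members (15.9%, against 4.85% of all genes), namely JOX4, CORI3, JOX3, LOX4, JAZ5, PDF1.2 and LOX2. Without control replicate 1, 5 members were called, all lower, and the median was -0.26. In that setting 5% of all genes were called, 59.3% of these calls were lower, and the median of all genes was 0.013. The median of the 44 differences was -0.18, where that of all genes was 0.03. Set against the median of all genes, the members' median was -0.21, and it lay between -0.29 and -0.10 over the alternative settings, several of which, such as spike-in scaling, cannot move this quantity. With all 47 members the median was -0.20.

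**Figure D1:**
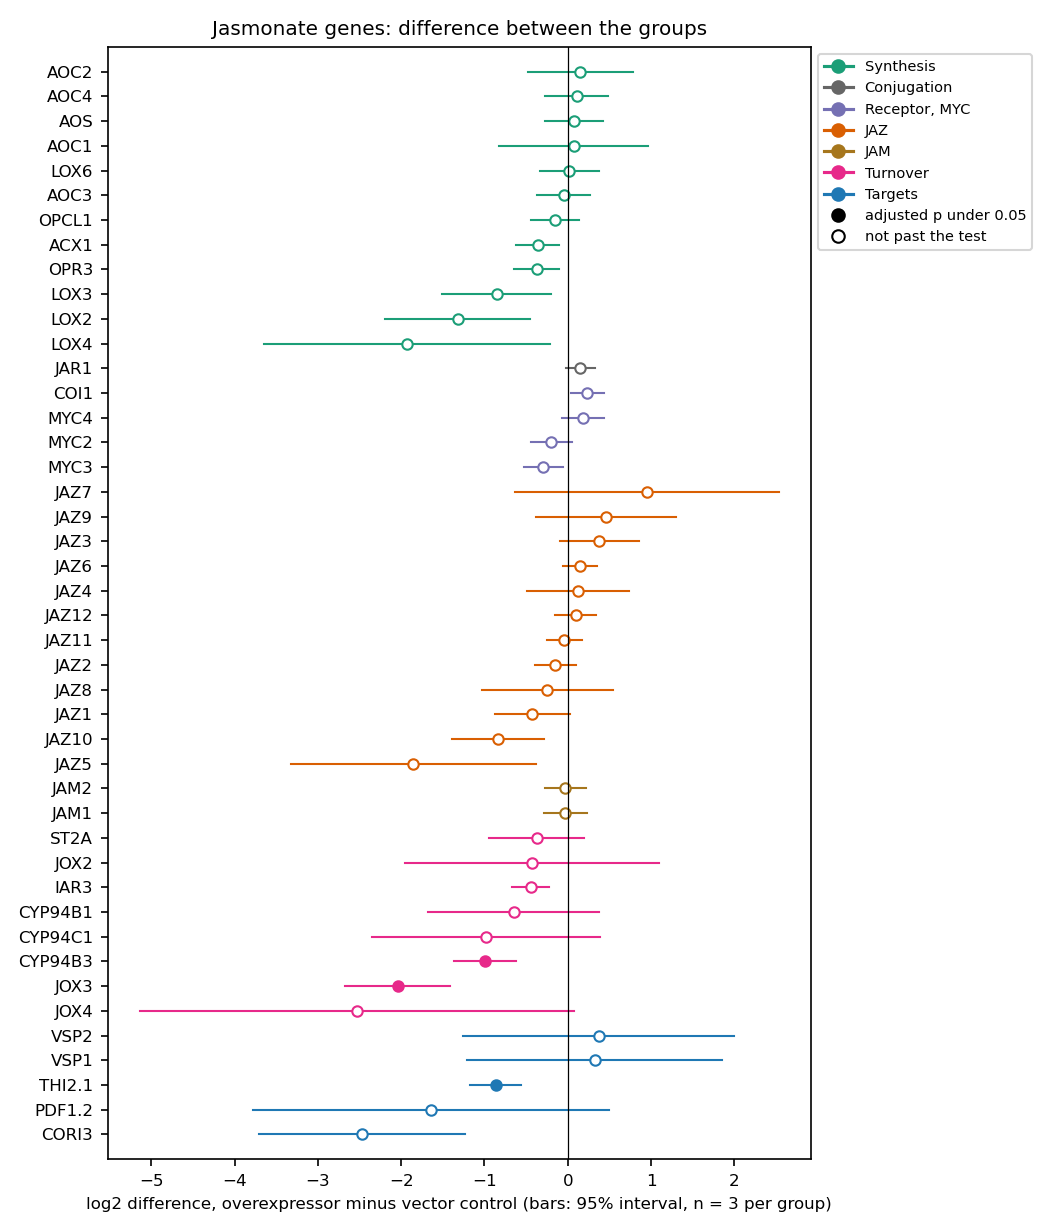
Log2 difference of each of the 44 tested jasmonate genes (horizontal axis, overexpressor minus vector control, n = 3 per group), grouped by pathway step, with bars for the 95% interval and filled points for an adjusted p under 0.05. The 3 filled points are CYP94B3, JOX3 and THI2.1, and the differences run from -2.53 for JOX4 to 0.95 for JAZ7. Spike-in scaling moves every point by -0.27, and JOX3 and JOX4 turn to 0.12 and 0.05 with normexp background correction and an offset of 50.

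Of 12 measured synthesis genes 0 passed the test, and the 3 largest differences among them were those of LOX4, LOX2 and LOX3. LOX2 (AT3G45140), a plastid lipoxygenase that serves jasmonate synthesis in wounded leaves, had scaled log2 signals of 2.11, 2.37 and 3.22 in the overexpressor and of 3.38, 4.18 and 4.10 in the control. Every control array lay above every overexpressor array. The difference was -1.32 (SE 0.35, 95% interval -2.19 to -0.45, limma adjusted p = 0.079). LOX4 (AT1G72520), a lipoxygenase that is induced by wounding, had signals of -3.80, -3.71 and -3.60 in the overexpressor and of -0.76, -1.14 and -3.43 in the control. Here 2 control arrays were high, while control replicate 3 lay near the overexpressor arrays. The difference of -1.93 (SE 0.70, limma adjusted p = 0.13) ran from -2.76 without control replicate 3 (limma adjusted p = 0.0080) to -1.42 without control replicate 1 (limma adjusted p = 0.22), and it was -1.61 without control replicate 2 (limma adjusted p = 0.28). LOX3, the close relative of LOX4 in function, differed by -0.85 (SE 0.27, limma adjusted p = 0.10) with groups that did not overlap. LOX6, which acts early after wounding, differed by 0.02.

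Allene oxide synthase and the cyclases, which act next, gave 0 calls. AOS (AT5G42650) had signals of 4.51, 4.21 and 4.70 in the overexpressor and of 4.48, 4.30 and 4.42 in the control, and the groups overlapped. Its difference was 0.07 (SE 0.14, 95% interval -0.28 to 0.42, limma adjusted p = 0.75). The 4 cyclase genes AOC1 to AOC4 differed by between -0.05 and 0.15, the groups overlapped for each of them, and their signs were not the same in every setting. AOC1, AOC2 and AOC3 lie side by side on chromosome 3, and cross-hybridisation of their probes was not tested. In the peroxisome, OPR3, the reductase of OPDA, differed by -0.37 (SE 0.11, limma adjusted p = 0.094). ACX1, an acyl-CoA oxidase of the chain-shortening cycle, differed by -0.36 (SE 0.10, limma adjusted p = 0.089). For both genes the control arrays all lay above the overexpressor arrays. OPCL1, which activates the precursor for shortening, differed by -0.15 and its groups overlapped.

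Conjugation, the receptor and the MYC activators had no member past the test, with differences between -0.29 and 0.24. JAR1 (AT2G46370), which makes the active isoleucine conjugate, had signals of 2.71, 2.67 and 2.65 in the overexpressor and of 2.57, 2.48 and 2.52 in the control. The difference was 0.15 (SE 0.07, 95% interval -0.02 to 0.33, limma adjusted p = 0.20). COI1 (AT2G39940), the F-box subunit of the receptor, had signals of -0.85, -0.99 and -0.92 against -1.09, -1.24 and -1.14. Its difference was 0.24 (SE 0.08, 95% interval 0.03 to 0.44, limma adjusted p = 0.12). The groups of both genes did not overlap, yet both differences turned to -0.12 and -0.04 with spike-in scaling. MYC2 (AT1G32640), the main bHLH activator of wound genes, had signals of -0.59, -0.88 and -0.78 in the overexpressor and of -0.59, -0.48 and -0.58 in the control. The highest overexpressor array all but met the lowest control array, and the difference was -0.20 (SE 0.10, 95% interval -0.44 to 0.05, limma adjusted p = 0.23). MYC3 and MYC4, which act together with MYC2, differed by -0.29 (limma adjusted p = 0.11) and 0.19 (limma adjusted p = 0.27), and the latter turned to -0.09 with spike-in scaling.

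Of the 12 JAZ repressor genes 6 were higher and 6 lower in the overexpressor, 0 passed the test, and the median difference was 0.03. JAZ5 (AT1G17380) had signals of -3.22, -3.51 and -3.21 in the overexpressor and of -0.50, -1.04 and -2.85 in the control. As for LOX4, control replicates 1 and 2 were far above the other arrays and control replicate 3 was not. The difference was -1.85 (SE 0.60, limma adjusted p = 0.11), and it was -1.37, -1.64 and -2.55 without control replicates 1, 2 and 3 (limma adjusted p = 0.16, 0.24 and 0.015). JAZ10 (AT5G13220), which has splice forms that resist degradation and damp the response, had signals of -3.22, -3.13 and -3.27 against -2.82, -1.95 and -2.33. The groups did not overlap, and the difference was -0.84 (SE 0.22, 95% interval -1.39 to -0.29, limma adjusted p = 0.078). Without control replicates 1, 2 and 3 the difference of JAZ10 was -1.07, -0.63 and -0.82 (limma adjusted p = 0.034, 0.15 and 0.12), and it was -0.39 with normexp and -0.48 with background subtraction.

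JAZ7 stood at the other end of the family. Its signals were -4.45, -4.29 and -4.89 in the overexpressor and -6.92, -4.36 and -5.21 in the control, where replicate 1 was not well above background. The groups overlapped and the difference was 0.95 (SE 0.64, limma adjusted p = 0.35). JAZ1, JAZ8, JAZ2 and JAZ11 differed by between -0.42 and -0.04, and JAZ12, JAZ4, JAZ6, JAZ3 and JAZ9 by between 0.10 and 0.46. Control replicate 1 was the lowest of the 6 arrays for 6 of the 12 genes, JAZ7 and JAZ9 among them, where it was the lowest for 32.6% of all genes. The SD among the control arrays was larger than that among the overexpressor arrays for 11 of the 12, as it was for 65.3% of all genes. JAM1 and JAM2, bHLH factors that oppose the MYC activators, each differed by -0.03, and the groups overlapped for both.

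**Figure D2:**
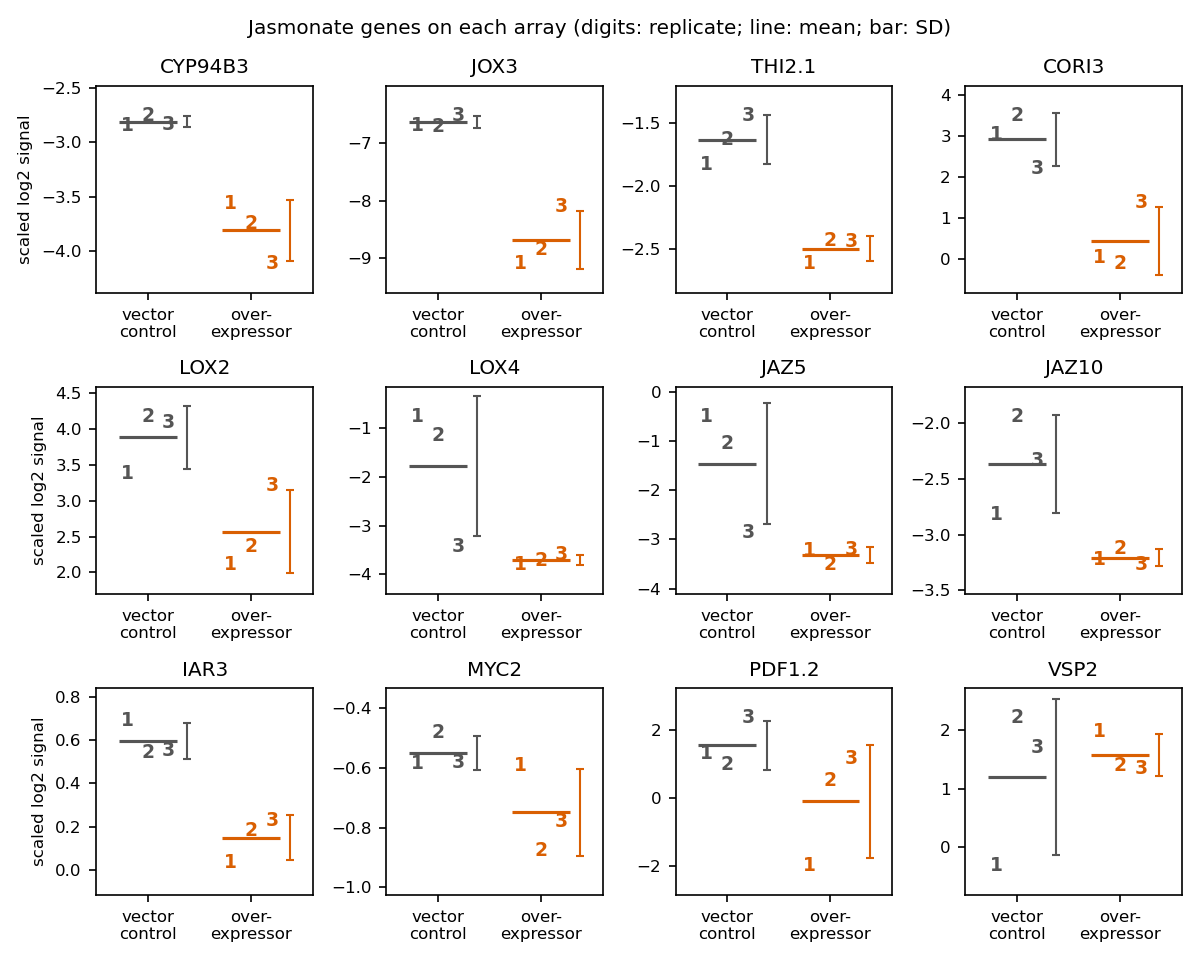
Scaled log2 signal of 12 jasmonate genes on each array, with vertical axes set per gene. Digits give the replicate, lines the mean of 3 arrays and bars the SD. CYP94B3 (AT3G48520), JOX3, THI2.1, CORI3, LOX2, JAZ10, IAR3, LOX4 and JAZ5 show groups that do not overlap, LOX4 and JAZ5 with control replicate 3 near the overexpressor arrays. The groups of MYC2 do not overlap either, but all but meet. VSP2 shows control replicate 1 below the other arrays.

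Of the genes for removal of the hormone, 6 were well above background on all arrays, and 1 of these, CYP94B3, fell, where 2.28% of all such genes fell. The differences of these 6 genes were below 0, as were 45% of those of all such genes. JOX3 and JOX4 were tested through the control arrays alone, which bears on their sign. CYP94B3, a cytochrome P450 that hydroxylates the isoleucine conjugate, had scaled log2 signals of -3.57, -3.75 and -4.11 in the overexpressor. The control arrays gave -2.84, -2.76 and -2.84, within a narrow range and above every overexpressor array. CYP94B3 fell, with a difference of -0.997 (SE 0.15, 95% interval -1.37 to -0.63, limma adjusted p = 0.034). CYP94B1, which catalyses the same hydroxylation, differed by -0.65 (SE 0.42, limma adjusted p = 0.33). CYP94C1 (AT2G27690), which carries the oxidation further, had signals of -5.89, -5.98 and -5.27 in the overexpressor and of -5.16, -3.50 and -5.54 in the control. Control replicate 2 alone was high, the groups overlapped, and the difference was -0.98 (SE 0.55, limma adjusted p = 0.28).

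The JOX enzymes hydroxylate free jasmonic acid and so keep it from being conjugated. JOX3 (AT3G55970) had processed signals of 1.82, 1.77 and 3.31 in the overexpressor, none of them well above background, and of 11.3, 10.6 and 11.9 in the control. On the scaled log2 scale these were -9.09, -8.85 and -8.11 against -6.69, -6.71 and -6.52. JOX3 fell (limma adjusted p = 0.027), though it was tested through the control arrays alone. Because the overexpressor arrays give only a bound, the control was at least 1.09-fold higher, on the scaled processed signal only. That bound lay between 1.04 and 1.13 without single arrays. The fitted difference was -2.04, and with background subtraction or normexp, both with an offset of 50, it was 0.07 and 0.12. JOX4 (AT2G38240) had signals of -9.15, -8.92 and -5.69 in the overexpressor and of -6.37, -4.25 and -5.55 in the control. Overexpressor replicate 3 was well above background, as were all control arrays, the groups overlapped, and the difference was -2.53 (SE 1.06, limma adjusted p = 0.17). JOX2 differed by -0.43 (SE 0.62, limma adjusted p = 0.66), with control replicate 1 the lowest of the 6 arrays. Without control replicates 1, 2 and 3 the difference of JOX2 was -1.15, -0.05 and -0.08 (limma adjusted p = 0.040, 0.97 and 0.95).

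IAR3 (AT1G51760), an amidohydrolase that splits the isoleucine conjugate, had signals of 0.03, 0.18 and 0.23 in the overexpressor and of 0.69, 0.54 and 0.55 in the control. The groups did not overlap, and the difference was -0.45 (SE 0.09, 95% interval -0.67 to -0.22, limma adjusted p = 0.052). ST2A, a sulfotransferase of hydroxylated jasmonate, differed by -0.37 and its groups overlapped. The median difference was -0.55 over the 6 genes well above background on all arrays and -0.65 over all 11 genes listed for this step, of which ILL6 had a difference of 0.07.

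The 5 targets were split. THI2.1 (AT1G72260), a thionin used as a marker of jasmonate defence, had signals of -2.62, -2.44 and -2.44 in the overexpressor and of -1.83, -1.63 and -1.44 in the control. The groups did not overlap, and THI2.1 fell, with a difference of -0.87 (SE 0.12, 95% interval -1.17 to -0.56, limma adjusted p = 0.032). CORI3 (AT4G23600), a cystine lyase induced by the jasmonate mimic coronatine, had signals of 0.04, -0.10 and 1.38 in the overexpressor. The control arrays gave 3.03, 3.49 and 2.21, all above the overexpressor. The difference was -2.47 (SE 0.50, 95% interval -3.71 to -1.23), and it missed the threshold (limma adjusted p = 0.051). CORI3 passed in 4 of 18 alternative settings, with differences between -2.94 and -2.18 over all of them.

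PDF1.2 (AT5G44420), the plant defensin of the branch that jasmonate shares with ethylene, had signals of -1.97, 0.51 and 1.17 in the overexpressor and of 1.296, 0.97 and 2.36 in the control. Overexpressor replicate 1 was far below the other arrays, the groups overlapped, and the difference was -1.64 (SE 0.87, limma adjusted p = 0.25). VSP2 (AT5G24770), a vegetative storage protein that is the classic wound marker of the MYC branch, had signals of 1.98, 1.40 and 1.34 in the overexpressor and of -0.31, 2.21 and 1.70 in the control. Control replicate 1 was the low array, and the difference was 0.37 (SE 0.66, limma adjusted p = 0.73). VSP1, which lies next to VSP2 on chromosome 5, differed by 0.33 with the same array lowest. Without control replicate 1 the differences of VSP1 and VSP2 were -0.41 and -0.38, without control replicate 2 they were 0.65 and 0.87, and neither gene passed.

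Across arrays, control replicate 2 was the highest array for 15 of the 44 members, where it was the highest for 12.2% of all genes. Control replicate 1 was the highest for 6 (26.4% of all genes) and the lowest for 11. Overexpressor replicate 1 was the lowest for 14, 7 of them synthesis genes (13% of all genes). The median SD of a member was 0.19 among overexpressor arrays and 0.29 among control arrays, beside 0.12 and 0.17 for all genes.

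**Figure D3:**
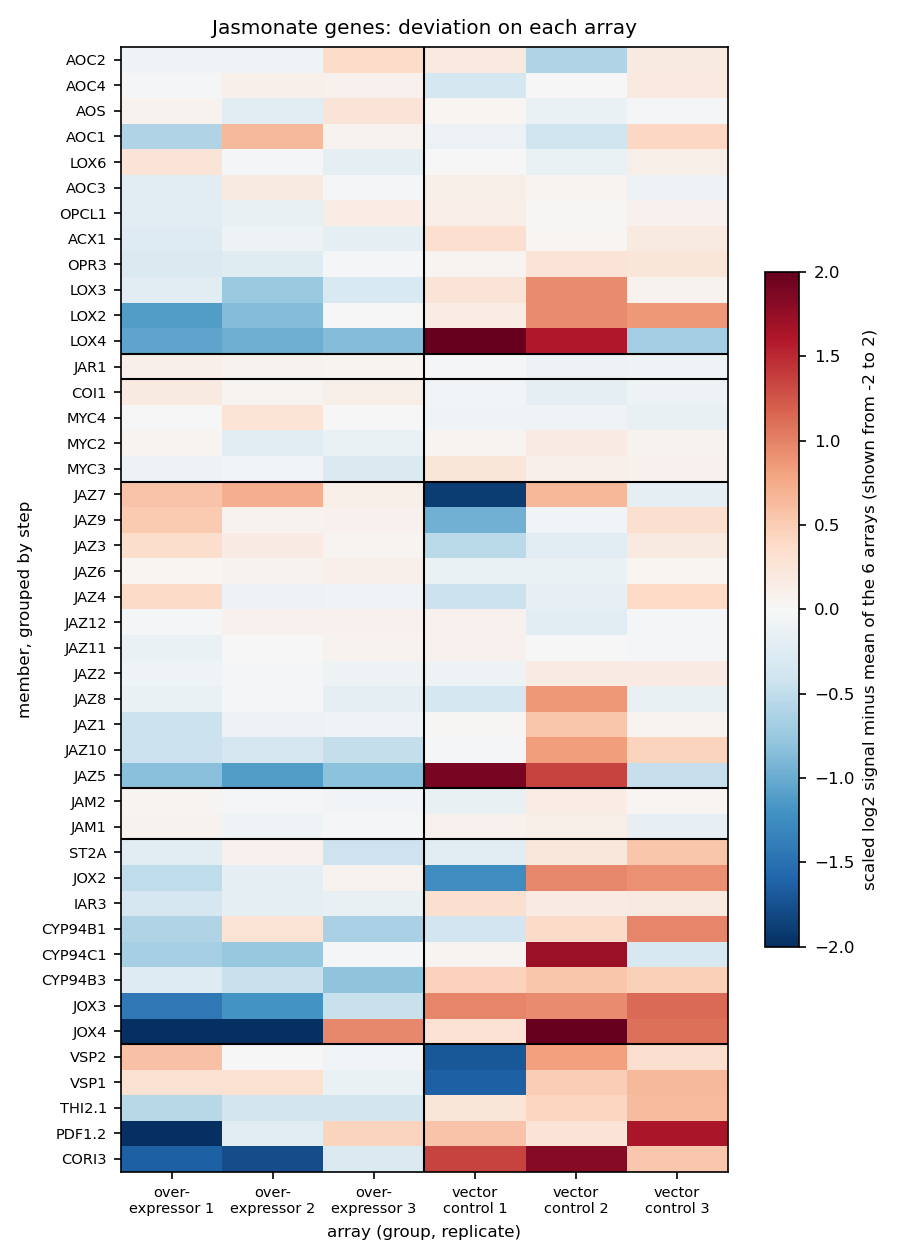
Deviation of each tested jasmonate gene from its mean over the 6 arrays (colour, log2, shown from -2 to 2), with arrays in columns and genes in rows grouped by step in the order synthesis, conjugation, receptor and MYC, JAZ, JAM, turnover and targets. LOX4 and JAZ5 are high on control replicates 1 and 2 alone, while JAZ7, JOX2, VSP1 and VSP2 are low on control replicate 1.

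A further 54 genes of the pathway, outside the members, were examined as 4 lists, and 45 of 53 on the array were tested. Of these 45 genes 3 fell and 0 rose (6.67% fell, against 2.66% of all genes), and the median difference was -0.37. The list counts that follow are to be read against the same 2.66%. Among 15 further synthesis genes 2 fell, LOX1 and LOX5, which are lipoxygenases that attack another carbon of the fatty acid and feed other oxylipins. LOX1 had signals of 0.55, 0.74 and 0.51 in the overexpressor and of 1.53, 1.41 and 1.55 in the control, with a difference of -0.90 (SE 0.09, limma adjusted p = 0.020). LOX5 differed by -0.48 (SE 0.08, limma adjusted p = 0.041). HPL1, which draws precursors of jasmonate towards green leaf volatiles, differed by -0.79 (limma adjusted p = 0.083).

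Among 10 genes of further turnover and transport 1 fell. This was MES9, an esterase of methylated hormones, at -0.86 (SE 0.14, limma adjusted p = 0.036). ILL5, an amidohydrolase gene near IAR3, was well above background on 1 of 3 overexpressor arrays and tested through the control arrays alone, with a difference of -0.98 (limma adjusted p = 0.16). Among 8 further signalling genes 0 passed, and the largest differences were those of NAC055 at -1.32 (limma adjusted p = 0.13) and NAC019 at -0.97 (limma adjusted p = 0.43), transcription factors downstream of MYC2.

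Of 12 tested further targets 12 were lower in the overexpressor, where 46% of all genes were, and 0 passed, with a median of -1.26. TAT3 and TPS04 among them were tested through the control arrays alone. The median deviation of the list was -1.47, 0.12 and 0.03 on overexpressor replicates 1, 2 and 3 and 0.34, 0.43 and 0.68 on the control arrays, and overexpressor replicate 1 was the lowest array for 9 of the 12. PDF1.3, a defensin, differed by -3.51 (SE 1.76, limma adjusted p = 0.23). TAT3, a tyrosine aminotransferase, had processed signals of 3.94, 5.85 and 76.0 in the overexpressor, 1 of them well above background, and of 101.1, 34.7 and 180.7 in the control, and the groups overlapped. PDF1.2b and PDF1.2c, relatives of PDF1.2 named here after their values were seen, differed by -2.02 and -1.76. For PDF1.2, PDF1.2b, PDF1.2c and PDF1.3 alike, overexpressor replicate 1 was the lowest and control replicate 3 the highest array. Signals of defensin genes of such similar sequence cannot be taken as separate measurements.

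Other responses were measured on the same arrays. The median deviation of 15 tested genes of the rapid wound and touch response was 0.93, 0.46 and -0.39 on control replicates 1, 2 and 3, against -0.66, -0.23 and -0.24 in the overexpressor. Control replicates 1 and 2 were thus high, as they were for LOX4 and JAZ5. All 15 of these genes were lower in the overexpressor and 0 passed, with a median of -0.70, or -0.40 without control replicate 1. Their summed level, relative to the 75th percentile, was 18.7 to 23.8 in the overexpressor and 20.8 to 53.4 in the control. For the 15 tested salicylic acid genes the median difference was -1.74, or -1.07 without control replicate 1, and 0 passed. For the 20 root markers the median difference was 0.37, or 0.04 without control replicate 1. Of these 16 were higher and 4 lower in the overexpressor, where 46% of all genes were lower. The only one past the test was SKOR, which fell and was tested through the control arrays alone. Their summed level, of which PYK10 made up most, was 100.4 to 119.1 in the overexpressor and 93.9 to 123.4 in the control. The part of wound, salicylic acid and root genes in the differences of the jasmonate genes was not tested. In whole seedlings, fewer cells of a type and less RNA per cell cannot be told apart.

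**Figure D4:**
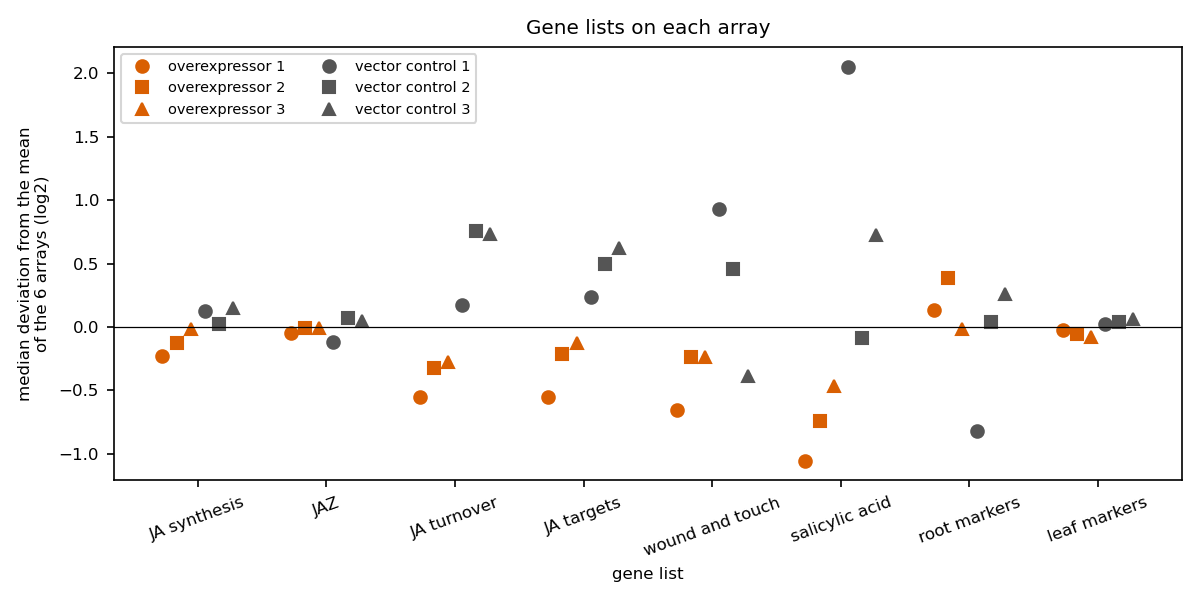
Median deviation of 8 gene lists from the mean of the 6 arrays (vertical axis, log2), with 1 point per array, colour for the group and shape for the replicate. Jasmonate synthesis, jasmonate target and leaf marker genes lie above 0 on all control arrays and below 0 on all overexpressor arrays. The leaf markers stay between -0.08 and 0.07. The turnover genes do so only with JOX3 and JOX4, which were tested through the control arrays alone. Without JOX3 and JOX4 the turnover median on control replicate 1 lies below 0. JAZ genes lie near 0, and control replicate 1 stands out for wound and touch, salicylic acid and root lists.

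The 3 calls rest on small margins. CYP94B3, JOX3 and THI2.1 passed in 10 of 18, 10 of 17 and 11 of 18 alternative settings, and each lost its call without overexpressor replicate 1 or 2 or control replicate 2, when 46, 49 and 35 genes of any kind were called. CYP94B3 and THI2.1 were also lost without overexpressor replicate 3, when 51 genes were called, and CYP94B3 without control replicate 3, when 1177 were. CYP94B3 thus kept its call in 1 of these 6 omissions, that of control replicate 1. The adjusted p-values of CYP94B3, JOX3 and THI2.1 without single arrays reached 0.12, 0.11 and 0.11.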

How the data were processed

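Total RNA of 6 seedling samples was labelled with Cy3 and read on one-colour Agilent arrays. Spot intensity was measured by the authors using version 11.5.1.1 of Agilent's Feature Extraction software, as the deposited headers state, and its processed values are background-subtracted and detrended within each array, and not normalized between arrays. Raw median intensity of spot and background, and other values, flags of 0 or 1, were used as deposited. The deposited table of the series holds linear intensity with equal quartiles in all columns, and its method is not given in the sources used here.

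The log2 processed signal was centred on each array's 75th percentile over 35635 probes, outlier spots were set to missing, and a gene took its brightest probe. A limma fit (version 3.58.1, R 4.3.3, lmFit then eBayes) covered 23394 genes and was tested on simulated data. Of 35475 identifiers 26414 matched the RefSeq gene table of TAIR10.1. The headers name another build, so coordinates are not given. JAZ2, JAZ9, JOX1 to JOX4, JAM1, JAM2 and some names in the other lists are in common use, and that table gives another symbol or none. For a fold bound, each dim array took its own signal or the array's lowest signal well above background, whichever was higher, and the group means were then divided. Bounds without single arrays were added after the data were seen.

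Members, lists and steps were chosen with earlier results of these data known. Values on every array are given for members that passed, the 10 tested members with the largest absolute difference, and MYC2, COI1, AOS, LOX2, JAR1, JAZ10, VSP2 and PDF1.2. Of other pathway genes, those that passed and the 2 with the largest absolute difference per list are named. IAR3, SEP3 and EM1 were added after their values were seen. The gene ACX3 shares its probe's annotation with another locus and was not used. Alternatives covered background correction, normalization, the filter, probe summary, variance model, the replicate number as a block and leaving out each array. Figures were drawn with matplotlib 3.10.9.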

Additional observations from a re-analysis of the deposited data

How the results depend on the processing

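Against 1210 genes called, 4 were called with normexp, 1958 with spike-in scaling, 187 with no filter and 14 with the replicate number as a block. Of the members, 0 were called with normexp, 0 with no filter, 0 with the block, 11 with spike-in scaling and 5 with a trended robust variance. Over all genes, 8.37% were called with spike-in scaling, and 94.8% of these calls were lower. With the trended robust variance 1706 genes were called, or 7.29%. The labels do not say whether the replicate numbers pair the samples. Correlations of deviations between arrays of the same number were -0.09, -0.00047 and -0.02, and 0 arrays correlated best with their own number. With 3 arrays per group these values cannot decide whether the samples were paired. Leaving out single arrays gave 35 to 1181 genes, 0 to 5 members and medians of -0.26 to -0.11. Without overexpressor replicates 1, 2 and 3 there were 46, 49 and 51 genes and 0, 0 and 1 members. Without control replicates 1, 2 and 3 there were 1181, 35 and 1177 genes and 5, 0 and 4 members. The members' median was -0.021 with normexp, -0.067 with background subtraction and -0.45 with spike-in scaling. The cause of these shifts was not tested.

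Differences that changed sign with normexp were JAZ2 at 0.0013, JAZ8 at 0.16, AOS at -0.016, AOC1 at -0.076, AOC3 at 0.050, CYP94C1 at 0.029, JOX3 at 0.12, JOX4 at 0.048, JAM2 at 0.050, NAC019 at 0.088 and ILL5 at 0.093. With background subtraction they were JAZ8 at 0.097, AOS at -0.014, AOC1 at -0.078, AOC3 at 0.018, JOX3 at 0.070, JAM2 at 0.045 and ILL5 at 0.024. With spike-in scaling they were JAZ4 at -0.15, JAZ6 at -0.13, JAZ12 at -0.18, MYC4 at -0.088, COI1 at -0.037, LOX6 at -0.25, AOS at -0.20, AOC1 at -0.20, AOC2 at -0.12, AOC4 at -0.17 and JAR1 at -0.12. With quantile normalization they were AOC3 at 0.0094 and JAM2 at 0.044, and with the deposited table AOC3 at 0.0090 and JAM2 at 0.044. Leaving out single arrays changed the sign of JAZ4 (-0.055 to 0.36), JAZ8 (-0.48 to 0.13), JAZ11 (-0.081 to 0.017), LOX6 (-0.11 to 0.13), AOS (-0.040 to 0.21), AOC1 (-0.23 to 0.39), AOC2 (-0.11 to 0.29), AOC3 (-0.15 to 0.049), AOC4 (-0.042 to 0.23), VSP1 (-0.41 to 0.73), VSP2 (-0.38 to 0.87), JAM1 (-0.12 to 0.018) and JAM2 (-0.11 to 0.040). The slide moves with the group in every setting. Normexp and background subtraction were both run with an offset of 50, while the processed signals of JOX3 were 1.77 to 11.9. For dim members such as JOX3 and JOX4 these settings therefore cannot separate background removal from the offset. The part of each in the changes of sign was not tested.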

Other observations

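DGL and MYB21, of the other pathway genes, were named after their values were seen and were not tested. DGL, a plastid lipase, had scaled log2 signals of -9.11, -8.87 and -9.07 in the overexpressor and of -2.24, -3.75 and -9.45 in the control. MYB21, a transcription factor of jasmonate action in flowers, had signals of -9.07, -8.83 and -8.77 in the overexpressor and of -5.61, -6.55 and -8.54 in the control. Both were well above background on control replicates 1 and 2 alone, where MYB21 was dim, with processed signals of 23.9 and 11.9. LOX4 and JAZ5 were also higher on these arrays than on control replicate 3, but were well above background on all 6 arrays.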
